A study of Mus musculus with 6 samples.

Results

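The difference between Th17 cells at day 7 and Th17 cells at day 4 after activation was measured on 2 Illumina bead arrays, with 1 library on each side. The genes described are all those detected on either of these arrays, at a detection p-value below 0.01, after the 6 arrays of the time course had been normalized together. Of 28902 genes on the array, 10423 met this rule, of which 9192 were detected on both arrays, 709 at day 7 only and 522 at day 4 only. In the whole time course 11954 genes were detected in at least 1 of the 6 libraries, and 8224 in all 6.

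Both libraries came from CD4+ T cells of mice aged 6 weeks of the strain RAG1- BW TRP-1 TCR, which cannot rearrange lymphocyte receptor genes of their own and carry a transgenic T cell receptor for TRP-1, a melanocyte protein. The labels do not explain BW. The cells were activated with TRP-1 peptide and collected at day 7 and at day 4, and the other libraries of the course are Th17 cells of the same strain at days 2, 12 and 18 and unactivated naive cells at day 0. How many mice or cultures stand behind a library, which cytokines the cultures held and whether cells were sorted was not given in the sources used here. With 1 library per day there is no replicate, so no standard error and no p-value can be given for any difference, and the number of arrays limits the precision.

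Th17 cells are CD4+ helper T cells that secrete interleukins 17A, 17F and 21 and defend barrier tissues by recruiting neutrophils. STAT3, IRF4 and BATF take part in setting up the program. After activation, CD4+ T cells also build ribosomes and divide, and they both make interferon gamma and respond to it.

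The arrays were of like quality. Probes detected numbered 14203 of 45281 at day 7 and 13874 at day 4, within the range of 13687 to 14258 over the 6 arrays, and the median signal before correction was 93.4 at day 7 and 92.5 at day 4. The T cell label was checked on 16 identity genes, and all 16 were detected on both arrays. Cd3e, a chain of the T cell receptor complex, had a normalized log2 signal of 12.00 at day 7 and 11.49 at day 4. Cd4, the coreceptor named in the label, was at 7.64 at day 7 and 7.14 at day 4. The summed signal of the 16 genes was 55114 at day 7 and 40536 at day 4, and 15 of the 16 lay above their day 4 level, by at most 0.80 on the log2 scale, so none differed by 2-fold. Whether a larger share of T cells in the sample or more of these RNAs per cell lies behind such a shift cannot be told apart in bulk RNA.

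In what follows a gene is called higher or lower at day 7 if the 2 libraries differed by 2-fold or more and the brighter of them detected it. For a gene undetected on the dimmer side, that side was set to the dimmest detected signal of its array, 4.89 at day 7 and 4.93 at day 4 on the log2 scale, and the fold is then a lower bound, written as "at least". By this rule 303 genes were higher at day 7 than at day 4, 2.91% of the 10423, and 291 were lower, 2.79%. The numbers were close to even, but the sizes were not. Only 29 genes were over 4-fold higher, against 72 over 4-fold lower, and 3 were over 8-fold higher against 19 over 8-fold lower. The median over all 10423 genes was 0.00, with a 10th percentile of -0.59 and a 90th of 0.62 on the log2 scale. Just inside the 2-fold threshold lay 69 higher and 52 lower genes, and just outside it 124 and 80, within 0.1 log2 units of it in each case.

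**Figure D1:**
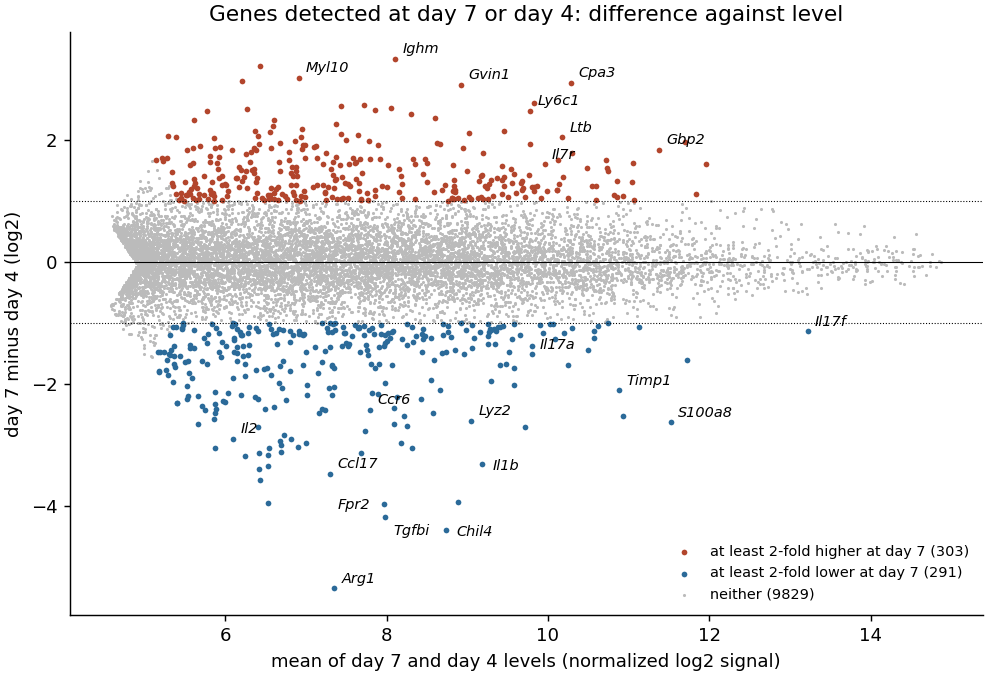
Difference between day 7 and day 4 on the log2 scale (vertical axis) against the mean of the 2 normalized log2 levels (horizontal axis), 1 point per gene. The 303 higher genes (red) seldom pass a difference of 3, while the 291 lower genes (blue) reach below -5 at Arg1. Differences are as measured, and dotted lines mark 2-fold.

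The balance of the calls rests on the scaling of the arrays. Of the 594 calls, 51.01% were higher with quantile normalization. Scaling the arrays on 14 detected reference genes moved the median of all genes to 0.18 and gave 558 higher and 217 lower genes, 72.0% of calls higher. Scaling them on the T cell identity genes moved the median to -0.35 and gave 145 higher and 809 lower genes, 15.2% of calls higher. Values below are from quantile normalization, and the 20 lists with medians from 0.01 to 0.37 changed sign when T cell identity genes were held level.

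An error from the arrays alone can be judged from genes with more than 1 probe. For 2814 genes with 2 probes detected on both arrays, the day 7 minus day 4 differences of the 2 probes were compared. The SD of their disagreement, divided by the square root of 2 to stand for 1 probe, was 0.195 log2 units. It was 0.230 for the dimmest tertile of these genes and 0.135 for the brightest tertile. Among 139 called genes with such a pair, the second probe moved the same way in 133 and by at least 2-fold in 84. This yardstick covers the probes and not the spread between cultures.

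The largest differences of the step, among genes with a proper name, were losses. Arg1, the arginase of alternatively activated macrophages, was not detected at day 7 (4.68) and stood at 10.03 at day 4, at least 35.3-fold lower. Its second probe moved by -4.04 against -5.35 for the first. Chil4, a chitinase-like protein of macrophages, was at 6.53 at day 7 and 10.93 at day 4, 21.1-fold lower. Tgfbi, an extracellular matrix protein induced by transforming growth factor beta, was at 5.88 at day 7 and 10.07 at day 4, 18.2-fold lower, and its second probe moved by -3.13. Each of these genes had reached a level of at least 10.87 at day 2, and neither Chil4 nor Tgfbi nor Arg1 was detected at day 12 or day 18.

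Other leading lower genes included Fpr2 and both interleukin 1 cytokines. Fpr2, a formyl peptide receptor of neutrophils and monocytes, was at 5.99 at day 7 and 9.95 at day 4, 15.7-fold lower. Chil3, which encodes the macrophage protein Ym1, was at 6.92 at day 7 and 10.85 at day 4, 15.3-fold lower. Il1b, the inflammatory cytokine interleukin 1 beta, was at 7.53 at day 7 and 10.84 at day 4, 9.97-fold lower. Its partner Il1a was 8.28-fold lower, and Il1rn, the secreted antagonist of both, was undetected at day 7 and 7.99 at day 4, at least 8.6-fold lower. Il1r1, the receptor on which all 3 act, was dim at day 7 (5.04) and undetected at day 4, and was not called.

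Further leading genes, of several kinds, were lower, some detected at both days and some at day 4 only. Cd14, the lipopolysaccharide coreceptor, was at 4.96 at day 7 and 8.12 at day 4, 8.95-fold lower. Clec4n and Clec4d, C-type lectin receptors of myeloid cells for fungal sugars, were 8.25-fold and 8.01-fold lower, and Clec7a (dectin 1), the beta-glucan receptor, was undetected at day 7 and at least 9.38-fold lower. H2-M2, a nonclassical class I gene, was 8.8-fold lower, and Trf, the iron carrier transferrin, 8.17-fold lower. Lum, a matrix proteoglycan of connective tissue, was 7.87-fold and Saa3, an acute phase protein, 7.84-fold lower. Ear2 and EAR3, eosinophil-associated ribonucleases of near-identical sequence that probes may not separate, were at least 12.3-fold and at least 7.75-fold lower. Car4, a membrane carbonic anhydrase, was at least 4.77-fold lower and Bdh2, a dehydrogenase of ketone body and siderophore metabolism, at least 4.81-fold lower. The entry IGH-VJ558, an immunoglobulin heavy chain variable segment name in the file, was undetected at day 7 and at least 5.72-fold lower, while its second probe moved by only -0.77.

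**Figure D2:**
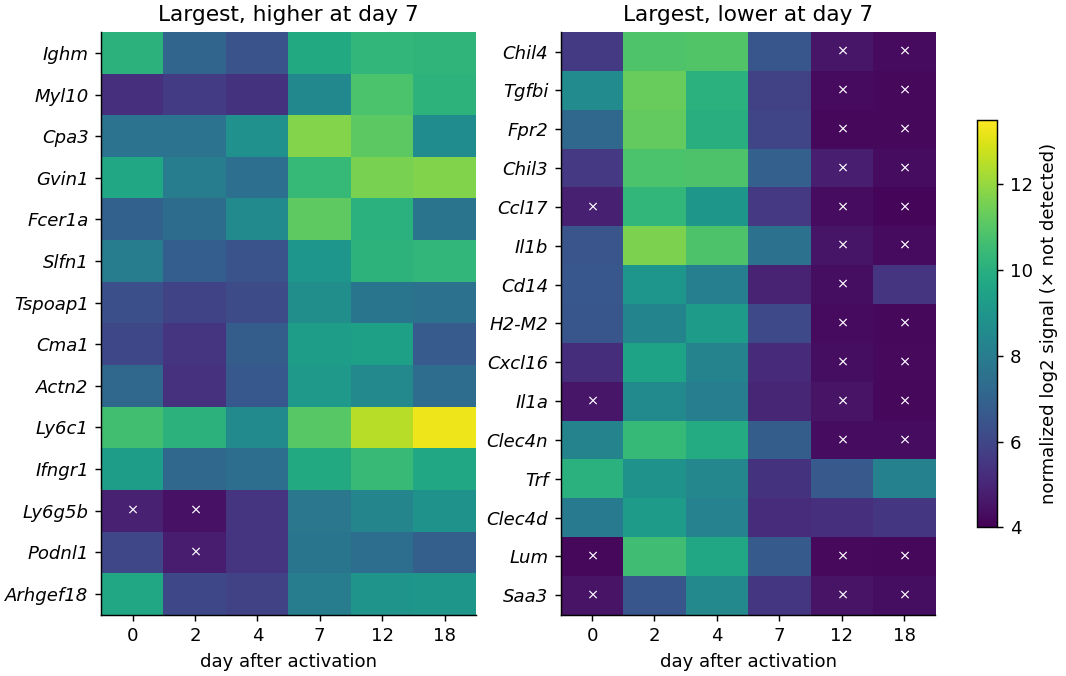
Normalized log2 signal (colour) by day for genes with the largest differences among those with a proper name and detected on both arrays. On the left are 14 of the 15 leading ones higher at day 7, and on the right the 15 lower. Crosses mark libraries that did not detect the gene. Among the 15 lower genes, 12 were undetected at both day 12 and day 18, with Cd14, Trf and Clec4d the exceptions.

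Counted as lists, 14 of 25 detected macrophage and monocyte genes were lower at day 7 and 1 was higher, with a median difference of -1.78, or -1.35 with undetected members at their bound. The day 7 library detected 13 members of the list and the day 4 library 24, of 35 on the array. Lyz2, the lysozyme of macrophages and granulocytes, was at 7.75 at day 7 and 10.35 at day 4, 6.08-fold lower. Csf1r, the macrophage colony-stimulating factor receptor, was undetected at day 7 and at 5.73 at day 4, too dim for a 2-fold bound. Adgre1, which encodes the F4/80 antigen, was at 5.01 at day 7 and 5.67 at day 4. The member that ran the other way was Ccr2, a chemokine receptor that T cells also carry, at 6.07 at day 7 and undetected at day 4, at least 2.2-fold higher. Summed over the list, the signals of days 2, 4, 7, 12 and 18 were 27354, 11839, 2070, 1020 and 807. Over all alternatives the median of the list lay between -3.09, over the second probes of 4 genes, and -0.66. Without background correction 9 of the 25 were lower.

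Neutrophil genes had the same pattern, with 12 of 20 detected members lower and 1 higher. Their median was -1.49, or -1.37 with undetected members at their bound. It lay between -1.88 and -0.78 over all alternatives, and without background correction 8 of the 20 were lower. S100a8, a subunit of calprotectin, was at 10.21 at day 7 and 12.84 at day 4, 6.18-fold lower, and its partner S100a9 was at 8.37 at day 7 and 11.07 at day 4, 6.5-fold lower. Mpo, the myeloperoxidase of granulocyte precursors, was the exception, at 6.41 at day 7 and undetected at day 4, at least 2.79-fold higher. It had been at 12.77 at day 0 and 10.09 at day 2, and it was at 6.24 at day 12 and again undetected at day 18. The summed signal of the neutrophil list was 3259 at day 7 and 15161 at day 4.

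Class II antigen presentation genes were lower for 3 of 11 detected members, with a median of -0.38. H2-Eb1, a class II beta chain, was at 5.92 at day 7 and 8.39 at day 4, 5.54-fold lower, H2-Aa, an alpha chain, was 3.74-fold lower and Cd74, the invariant chain, 3.2-fold lower. The dendritic cell list had 3 of 10 lower. Among its members Cd83, a maturation marker, was undetected at day 7 and at least 4.42-fold lower. Cathepsin H (Ctsh), a lysosomal protease, was 6.55-fold lower, at 5.05 at day 7 and 7.76 at day 4. In all, 64 of the 10423 genes belonged to the neutrophil, macrophage, dendritic cell or class II lists. Of these 64, 31 were lower and 2 higher, beside 2.79% and 2.91% of all genes. Without those lists 301 genes were higher and 260 lower. The lists do not hold every gene of such cells, since Fpr2, Il1b and Clec7a, named above, are in none of them. The part that a change in the share of such cells has in the other lower genes was not tested.

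Chemokines were the list with the largest share of members called. Of 15 detected, 11 were lower and none was at least 2-fold higher, with a median of -1.61 beside 0.00 over all genes. With undetected members at their bound the median was -1.38. The day 7 library detected 9 members, and 1 of the 15 lay above its day 4 level, by 0.80. Ccl17, which draws cells bearing CCR4, was at 5.56 at day 7 and 9.03 at day 4, 11.1-fold lower, and Ccl24, an eosinophil attractant, was undetected at day 7 and at least 9.96-fold lower. Cxcl16, the ligand of CXCR6, was 8.66-fold lower by its brightest probe, while its second probe moved by -0.81. Cxcl1, a neutrophil attractant, was 5.22-fold lower and Cxcl9, an interferon-induced attractant of cells bearing CXCR3, at least 4.63-fold lower.

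Ccl3 and Ccl4, chemokines that T cells can also secrete, were in the same direction. Which cells these RNAs came from was not tested. Ccl3 was at 7.30 at day 7 and 9.55 at day 4, 4.77-fold lower, and Ccl4 was at 8.57 at day 7 and 10.58 at day 4, 4.03-fold lower.

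Th17 genes were lower or level, and none of 21 detected members was at least 2-fold higher. The list had 7 lower members and a median of -0.74, or -0.63 with undetected members at their bound. Ccr6, the chemokine receptor that marks Th17 cells, was at 6.58 at day 7 and 9.01 at day 4, 5.37-fold lower. Irf4, a transcription factor needed for the program, was at 9.41 at day 7 and 11.09 at day 4, 3.21-fold lower. These were the largest differences in the list.

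The signature cytokines remained well above detection. Il17f had a level of 12.65 at day 7 and 13.79 at day 4, 2.2-fold lower, and Il17a had 9.05 at day 7 and 10.57 at day 4, 2.86-fold lower. Il21, the cytokine that Th17 cells make for themselves and for B cells, was at 7.19 at day 7 and 8.24 at day 4, 2.07-fold lower. Lif and Il6st, which encode a cytokine of the interleukin 6 family and the receptor chain gp130, were also lower, both by 2.14-fold. With arrays scaled on reference genes only 3 members, Ccr6, Irf4 and Il17a, were still 2-fold lower and 1 was higher, Nfkbiz, an inducible regulator of NF-kappaB (a difference of 1.04 there and 0.88 with quantile normalization). With T cell identity genes held level 10 were lower and none higher. Il17a and Il21 had been undetected at day 0 and were again undetected at days 12 and 18, so day 7 was the last of these days on which either was detected.

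Some regulators of helper T cells did not differ by 2-fold. Rora, a nuclear receptor that promotes the Th17 program, was at 8.07 at day 7 and 8.81 at day 4. Maf, a factor that promotes interleukin 10 and 21, was at 6.82 at day 7 and 6.10 at day 4. Il22, a Th17 cytokine that acts on epithelium, and Ccl20, the ligand of CCR6, were undetected at day 7 and dim at day 4 (5.52 and 5.66), which left differences under 2-fold as bounds. Il23r, the receptor for interleukin 23, and the aryl hydrocarbon receptor gene Ahr were not detected in any library, so nothing can be said of them.

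**Figure D3:**
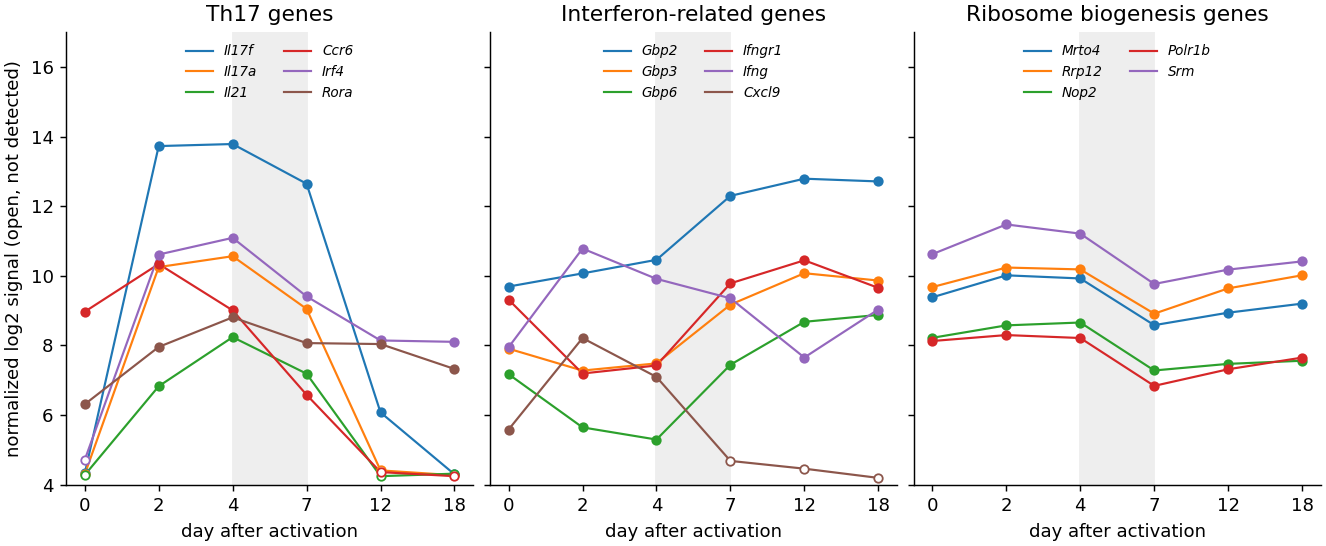
Normalized log2 signal by day for Th17 genes (left), genes related to interferon (middle) and ribosome biogenesis genes (right), with Srm, a polyamine synthesis gene, in the right panel. Grey bands mark the interval between day 4 and day 7, open circles mark libraries that did not detect the gene, and days are evenly spaced. Il17f and Il17a stayed close to their day 2 level at day 4 and were lower at day 7, while the Gbp genes were higher at day 7.

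Cytokines of other helper programs split by gene. Il2, the T cell growth factor, was undetected at day 7 and at 7.55 at day 4, at least 6.33-fold lower. It had been at 10.51 at day 2, and no library after day 4 detected it. Il3, a haematopoietic growth factor, was undetected at day 7 and at 6.65 at day 4, at least 3.4-fold lower. Il24, an interleukin 10 family cytokine, was at 10.92 at day 7 and 12.52 at day 4, 3.04-fold lower.

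Other cytokines stayed within 2-fold. Ifng was at 9.36 at day 7 and 9.91 at day 4, Il10 at 8.40 at day 7 and 8.56 at day 4, and Csf2, which encodes GM-CSF, at 6.74 at day 7 and 7.35 at day 4. Among lineage factors Tbx21, the Th1 factor, was undetected at day 7 and at 5.55 at day 4. Gata3, the Th2 factor, was at 6.13 at day 7 and 5.48 at day 4, and Foxp3, the regulatory T cell factor, at 8.68 at day 7 and 8.88 at day 4. None of these 3 factors met the 2-fold rule.

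Several genes that T cell receptor signalling is known to induce were lower. Egr2, a factor induced by antigen that restrains T cell activation, was at 5.99 at day 7 and 8.41 at day 4, 5.34-fold lower. Dusp4, a phosphatase that feeds back on MAP kinases, was at 7.58 at day 7 and 9.51 at day 4, 3.81-fold lower. Cd200, a surface ligand of activated lymphocytes, was at 6.76 at day 7 and 9.41 at day 4, 6.28-fold lower. Btla, an inhibitory receptor, was 3.35-fold lower, and Ccr8, a chemokine receptor of Th2 and regulatory cells, 3.41-fold lower. Lower genes were also found in the list of quiescence, memory and lymph node homing genes. Its members Bach2 and Bcl6, repressors that hold back effector fates and direct follicular helper cells, were 2.39-fold and 2.29-fold lower. Stat5a, a transducer of interleukin 2 signals, was at 7.79 at day 7 and 9.39 at day 4, 3.04-fold lower.

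Those losses did not extend to every activation gene. Il2ra, the alpha chain of the interleukin 2 receptor, was at 9.85 at day 7 and 10.50 at day 4, and Ctla4, an inhibitory receptor, at 10.70 at day 7 and 10.65 at day 4. Lag3, another inhibitory receptor, was at 8.03 at day 7 and 8.90 at day 4, and Havcr2, which encodes TIM-3, at 5.16 at day 7 and 5.27 at day 4. In the list of AP-1, EGR, NR4A and feedback genes, 2 of 23 were higher and 2 lower. The 2 higher ones were the AP-1 subunits Fos, at 6.68 at day 7 and 4.94 at day 4 (3.34-fold), and Jund, 2.03-fold.

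The leading higher genes included the following. Gvin1, a very large interferon-induced GTPase, was at 10.38 at day 7 and 7.48 at day 4, 7.47-fold higher. Slfn1, a schlafen gene of lymphocytes, was 5.96-fold higher at day 7, beside a level of 6.43 at day 4. Ly6c1, a surface antigen of memory T cells and monocytes, was at 11.02 at day 7 and 8.54 at day 4, 5.58-fold higher. Arhgef18, a guanine nucleotide exchange factor, was at 8.04 at day 7 and 5.85 at day 4, 4.54-fold higher. All 4 had a lower level at day 4 than at day 0 and went on to a higher level at day 12 than at day 7.

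Survival and homing genes of resting T cells were also higher. Il7r, the interleukin 7 receptor, was at 10.76 at day 7 and 9.16 at day 4, 3.03-fold higher, and Txnip, an inhibitor of glucose uptake that is high in quiescent cells, was at 11.50 at day 7 and 9.96 at day 4, 2.91-fold higher. Ltb, which encodes lymphotoxin beta, was at 11.20 at day 7 and 9.16 at day 4, 4.12-fold higher. Pik3ip1, an inhibitor of PI3 kinase, was at 6.88 at day 7 and undetected at day 4, at least 3.85-fold higher. Cd160 and Vsir, both inhibitory receptors, were 3.75-fold and 3.7-fold higher.

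Not every gene of naive T cells came back. Klf2, a factor of resting T cells, was at 10.45 at day 0 and undetected at both day 4 and day 7. In the whole list of quiescence, memory and lymph node homing genes, 2 of 22 detected members were higher, Il7r and Txnip. Bach2 and Bcl6, given above, were the 2 lower ones. The median was 0.18, so that as a list it was near the median of all genes.

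Signalling and adhesion genes of T cells gave a few further calls. Rasgrp1, which activates RAS after receptor stimulation, was 2.43-fold higher, Itgb7, the beta 7 integrin of gut homing, 2.52-fold, and Itgb5, the beta 5 integrin, 3.69-fold. Nkg7, a granule protein of cytotoxic cells, was at 10.15 at day 7 and 8.76 at day 4, 2.62-fold higher. Gzmd, a granzyme, was at 8.62 at day 7 and 7.75 at day 4, and Prf1, which encodes perforin, at 7.25 at day 7 and 7.54 at day 4, both within 2-fold. Pim1, a survival kinase, was 2.84-fold higher by its brightest probe, whereas its second probe moved by 0.26. Fut7, which makes selectin ligands, was at least 2.69-fold higher and Klrb1f, a C-type lectin of the natural killer complex, at least 2.3-fold higher.

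Interferon gamma response genes were the list with most higher members, 10 of 21 detected, with 1 lower and a median of 0.93. Gbp6, Gbp2 and Gbp3 encode guanylate-binding proteins, GTPases that act against intracellular pathogens. Gbp6 was at 7.45 at day 7 and 5.30 at day 4, 4.43-fold higher, Gbp2 at 12.30 at day 7 and 10.46 at day 4, 3.57-fold higher, and Gbp3 at 9.17 at day 7 and 7.49 at day 4, 3.22-fold higher. Second probes moved the same way, by 1.85 for Gbp6, 2.37 for Gbp2 and 1.69 for Gbp3.

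The other 7 higher members, named after their values were seen, included the regulators Irf1 (2.8-fold) and Nlrc5 (3.04-fold), which act on class I genes. Tap1 and Tap2, the peptide transporter of class I presentation, were 2.08-fold and 2.91-fold higher, and Psmb9, an immunoproteasome subunit, 2.12-fold. Igtp and Ifi47, immunity-related GTPases, were 2.49-fold and 2.27-fold higher. The exception was Cxcl9, lower as given above. The count was 6 higher with T cell identity genes held level and 13 with reference genes held level, and the median stayed between 0.62 and 1.15 over all alternatives. Ifngr1, the ligand-binding chain of the interferon gamma receptor and a member of the Th1 list, was at 9.79 at day 7 and 7.43 at day 4, 5.13-fold higher. Type I interferon genes had 2 of 15 higher and a median of 0.66, or 0.53 with undetected members at their bound. The higher members were Isg20, an exonuclease, at 7.01 at day 7 and undetected at day 4, at least 4.22-fold higher, and Usp18, a protease that removes ISG15, 2.32-fold higher.

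Promoter stretches of 3 of the higher interferon-related genes are shown because each holds the core of an interferon-stimulated response element. The sequences are from RefSeq for the build GRCm38.p6, 5′ to 3′ on the gene's own strand, with the matched letters in capitals.
Gbp2, chr3:142620574-142620643, plus strand: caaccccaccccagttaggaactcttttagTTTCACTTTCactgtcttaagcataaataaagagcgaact
Gbp3, chr3:142559975-142560043, plus strand: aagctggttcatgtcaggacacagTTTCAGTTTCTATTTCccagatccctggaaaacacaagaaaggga
Igtp, chr11:58199492-58199555, plus strand: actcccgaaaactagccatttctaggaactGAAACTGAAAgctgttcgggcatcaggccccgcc
The letters searched were GAAA followed, after 2 bases of any kind, by GAAA, on either strand, a motif added after the data were seen, and Gbp3 holds 2 overlapping matches. The match begins 59 bases before the annotated start in Gbp2, 39 in Gbp3 and 34 in Igtp. Of all 27025 promoters in the table, running from 250 bases before to 50 after the start, 3.49% hold a match, and of those of detected genes 2.96%. Only 16 of the 21 detected members of the list had a promoter in the table, too few for a share to be given, and 8 of these held a match. Of the 10 higher members 7 had a promoter there, and only 3 of them, the genes shown, held a match. A match is a description of letters and shows no binding.

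Ribosome biogenesis genes all moved one way. All 39 detected members lay below their day 4 level, with differences from -1.38 to -0.26 and a median of -0.87, and 14 were at least 2-fold lower. Nop2, a methyltransferase of ribosomal RNA, was at 7.28 at day 7 and 8.66 at day 4, 2.6-fold lower. Polr1b, the second subunit of RNA polymerase I, was at 6.84 at day 7 and 8.22 at day 4, 2.59-fold lower. Mrto4, an assembly factor of the large subunit, was at 8.58 at day 7 and 9.93 at day 4, 2.54-fold lower, and Rrp12, an export factor, was at 8.91 at day 7 and 10.19 at day 4, 2.41-fold lower. With T cell identity genes held level 29 were lower and with reference genes held level 9, and the median stayed negative in all alternatives, between -1.26 and -0.74.

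For Rrp12 and for the list as a whole day 7 was a low point. On days 2, 4, 7, 12 and 18 Rrp12 had levels of 10.24, 10.19, 8.91, 9.64 and 10.02. The summed signals of the list on the same days were 40944, 40198, 21113, 27727 and 28560. Between day 12 and day 2 only 4 members were lower by 2-fold.

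Among other genes of growth and translation, Srm, the spermidine synthase that MYC induces, was at 9.77 at day 7 and 11.21 at day 4, 2.73-fold lower, and Ncl, nucleolin, 2.01-fold lower. Myc itself was at 5.90 at day 7 and 6.67 at day 4, within 2-fold, and Mxd3, a partner of MAX that opposes MYC, was at 8.07 at day 7 and 6.17 at day 4, 3.71-fold higher. Mitochondrial ribosomal proteins had a median of -0.40 with 2 of 49 lower, Mrpl38 (2.03-fold) and Mrps18b (2.02-fold). Cytosolic ribosomal proteins, the protein part of the ribosome itself, had a median of -0.06 and no call among 49 members.

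The promoter stretch of Nop2 is shown because this gene led the list and holds an E-box, the letters CACGTG to which MYC and other factors bind.
Nop2, chr6:125131793-125131858, plus strand: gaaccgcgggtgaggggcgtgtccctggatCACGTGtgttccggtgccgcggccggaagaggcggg
The capitals mark the E-box, which begins 60 bases before the annotated start and reads the same on both strands. Of the 39 members 37 had a promoter in the table and 7 of these held the letters, 18.9%, beside 7.24% of all promoters and 10.3% of those of the genes detected at day 7 or day 4. Among 13 of the 14 lower members 3 held them.

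Histone genes moved upward as a group. Of 51 detected members 49 lay above their day 4 level, 8 were at least 2-fold higher and the median was 0.66. H3c3, a histone H3 gene, was at 7.62 at day 7 and 6.14 at day 4, 2.8-fold higher, H3c1 was 2.37-fold higher and H3c6 2.35-fold. H3c7 was 2.46-fold higher by its brightest probe, but another of its probes moved by -0.03. These genes are near-identical copies that probes may not separate, so the members are not independent. With T cell identity genes held level 1 was higher and with reference genes held level 15, and the median stayed between 0.31 and 0.84.

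Promoter stretches of 3 higher histone H3 genes are shown because they share a CCAAT box at a like distance from the start.
H3c3, chr13:23745539-23745603, minus strand: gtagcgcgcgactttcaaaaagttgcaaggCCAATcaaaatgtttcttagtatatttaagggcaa
H3c6, chr13:23562405-23562469, minus strand: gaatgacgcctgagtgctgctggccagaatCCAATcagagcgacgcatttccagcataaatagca
H3c4, chr13:23575677-23575741, plus strand: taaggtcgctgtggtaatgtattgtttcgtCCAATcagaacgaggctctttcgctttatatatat
The capitals mark the letters CCAAT, which begin 52, 54 and 56 bases before the annotated starts. Of the 51 detected histone genes 45 had a promoter in the table, and 35 of these (77.8%) held CCAAT on either strand, beside 37.9% of all promoters and 39.2% of those of detected genes. The 5 higher members with a promoter in the table all held it. Among the same 45 promoters the letters TTTGAA stood in 18 (40.0%, beside 18.1% of all promoters and 12.3% of those of detected genes). TTCGCGC stood in 8 (17.8%, beside 1.59% and 3.45%) and TTGGCGC in 2 (4.44%, beside 2.54% and 4.53%). Of the 5 higher members, 2 held TTTGAA and none held TTCGCGC or TTGGCGC.

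Division genes changed little beside the histones. Mki67, the proliferation marker Ki-67, was at 10.06 at day 7 and 9.44 at day 4, and Ccnb1, the mitotic cyclin B1, at 10.01 at day 7 and 9.98 at day 4. Of 64 detected genes of mitosis and chromosome segregation 56 lay above their day 4 level, 2 were higher and the median was 0.32, which turned to -0.05 with T cell identity genes held level. The 2 were Pimreg, a mitotic regulator (2.17-fold), and Cdc25b, a phosphatase that starts mitosis (2.12-fold), whose second probe moved by -0.08. In DNA replication and S phase 1 of 51 was higher, the histone chaperone Asf1b, at 9.35 at day 7 and 8.10 at day 4, 2.39-fold, and the median was 0.02. Among 25 detected genes that stop the cell cycle or respond to p53, 4 were higher. Cdkn2c, the inhibitor p18, was 3.27-fold higher with 0.56 for its second probe, Ccng2, a cyclin of resting cells, 2.24-fold, Trp53inp1, a p53 target, 2.21-fold and the death receptor Fas 2.03-fold.

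Lipid synthesis genes lay mostly above their day 4 level. Of 16 detected fatty acid synthesis genes 3 were higher and the median was 0.61. Acss2, which makes acetyl-CoA from acetate, was at 8.21 at day 7 and 6.62 at day 4, 3.0-fold higher, Fads2, a fatty acid desaturase, was 2.88-fold higher, and Scd1, the stearoyl-CoA desaturase, was at 10.70 at day 7 and 9.52 at day 4, 2.27-fold higher. Cholesterol synthesis and uptake had no call among 21 members, although 20 lay above their day 4 level and the median was 0.46, or 0.09 with T cell identity genes held level. Over the second probes of 4 fatty acid synthesis genes the median was -0.03.

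Energy metabolism was close to level. Aldoc, a fructose-bisphosphate aldolase, was at 9.63 at day 7 and 7.69 at day 4, 3.82-fold higher, and the glucose transporter Slc2a3 was 2.63-fold higher, while Slc2a1, the main glucose transporter of activated T cells, was at 10.99 at day 7 and 11.27 at day 4. The other 15 of 17 glycolysis genes were within 2-fold. Respiratory chain subunits, 35 in all, had no call, and their median was -0.22. In amino acid supply Vldlr, a lipoprotein receptor that ATF4 induces, was 2.42-fold higher, and the cystine transporter subunit Slc7a11 at least 2.28-fold and the one-carbon enzyme Shmt1 2.27-fold lower.

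**Figure D4:**
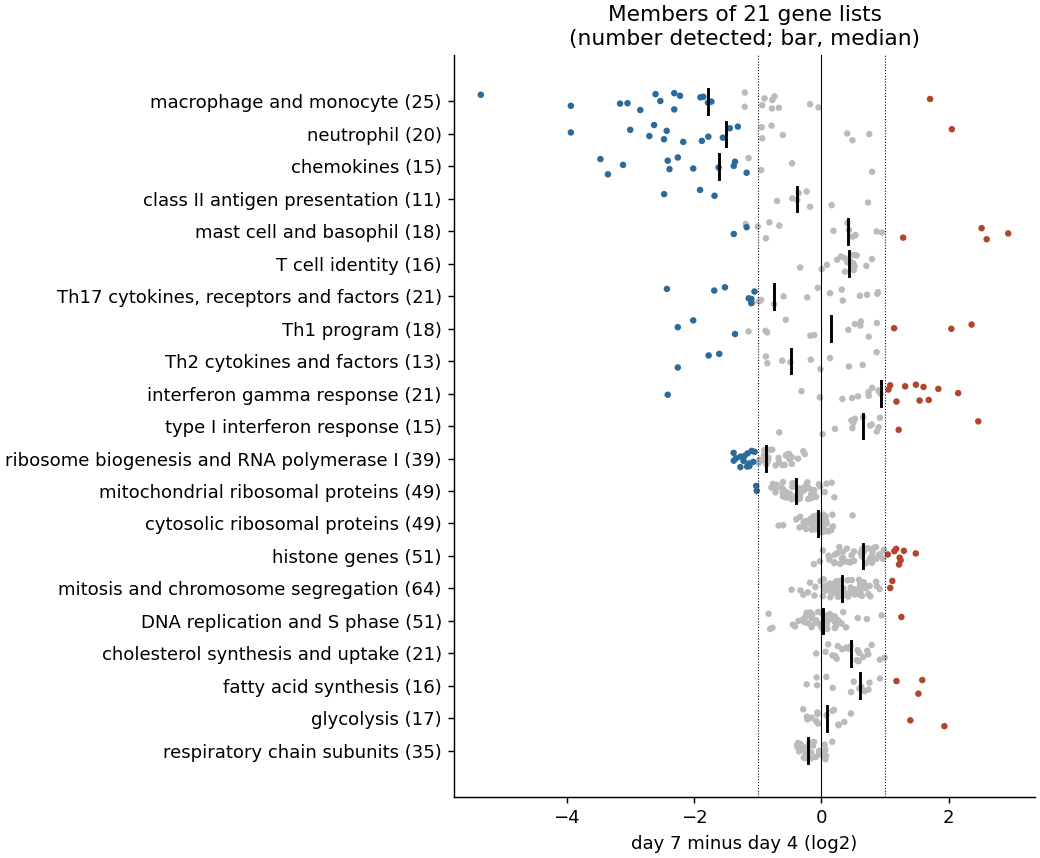
Day 7 minus day 4 difference on the log2 scale (horizontal axis) for the detected members of 21 gene lists, 1 point per gene as measured, with the median as a black bar. Red and blue points are higher and lower genes by the 2-fold rule with bounds, grey points neither. Ribosome biogenesis lies wholly below 0 with a median of -0.87, interferon gamma response genes centre on 0.93, and macrophage and chemokine genes have medians of -1.78 and -1.61.

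Mast cell and basophil genes stood out within the higher genes, since 3 of the 15 leading ones with a proper name belong to that list. Cpa3, a carboxypeptidase of mast cell granules, was at 11.75 at day 7 and 8.81 at day 4, 7.65-fold higher. Fcer1a, the alpha chain of the high-affinity IgE receptor, was at 11.13 at day 7 and 8.53 at day 4, 6.05-fold higher, and Cma1, the protease chymase, was at 9.31 at day 7 and 6.79 at day 4, 5.73-fold higher. Second probes moved by 2.87 for Cpa3, 2.85 for Fcer1a and 2.27 for Cma1. All 3 had fallen again by day 18, to 8.62 for Cpa3, 7.67 for Fcer1a and 6.73 for Cma1.

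The other members of the list did not move as one. Mcpt4, another mast cell protease, was 2.44-fold higher, while the chemokines Ccl9 and Ccl6 were 2.59-fold and 2.26-fold lower. Kit, the stem cell factor receptor, was at 7.44 at day 7 and 8.25 at day 4, Hdc, the histamine-forming enzyme, at 7.58 at day 7 and 8.24 at day 4, and Mcpt1 at 8.50 at day 7 and 9.50 at day 4, each within 2-fold. Ms4a2, the beta chain of the IgE receptor, was at 6.28 at day 7 and 5.33 at day 4. In all 4 of 18 were higher and 2 lower, the median was 0.42, and the summed signal was 8266 at day 7 and 4223 at day 4. What part cells of this type have in these values was not tested.

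The largest single difference upward among genes with a proper name was that of Ighm. It is the constant region gene of the immunoglobulin mu chain, listed under an older name in the file. Ighm was at 9.77 at day 7 and 6.44 at day 4, 10.1-fold higher, and its second probe moved by 3.47. The naive library had 10.11 and the libraries of days 2, 12 and 18 had 7.08, 10.27 and 10.22, so days 2 and 4 were the low ones. Of 20 B lineage genes on the array only 3 were detected at day 7 or day 4, and neither Ms4a1 (which encodes CD20) nor Pax5 was among them. Ebf1 was undetected at day 7 and at 5.04 at day 4, Cd79b was at 6.37 at day 7 and 5.90 at day 4, and Cd72 at 7.13 at day 7 and 7.49 at day 4.

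Several leading genes lie outside these lists. Myl10, a myosin light chain, was at 8.42 at day 7 and 5.41 at day 4, 8.08-fold higher, and stood at 10.80 at day 12. Tspoap1, a partner of the mitochondrial translocator protein TSPO, was at 8.71 at day 7 and 6.16 at day 4, 5.86-fold higher, and Actn2, a muscle-type alpha-actinin, at 9.11 at day 7 and 6.61 at day 4, 5.64-fold higher. Both had their highest level of the 6 days at day 7. Ly6g5b, a member of the LY6 family, was 5.0-fold and Podnl1, a leucine-rich repeat proteoglycan, 4.7-fold higher.

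Other genes were detected at day 7 and not at day 4. Zcchc18, a zinc finger protein gene, was at 7.69 at day 7, at least 6.78-fold higher, and Spo11, which makes the DNA breaks of meiosis, was at least 3.26-fold higher. Misp3, Mrvi1 and Osbpl5 were at least 3.03-fold, 2.85-fold and 2.33-fold higher. Vat1l was at 6.78 at day 7, at least 3.6-fold higher, and was detected in no other library. Ecm1, an extracellular matrix protein that helper T cells also secrete, was at 12.77 at day 7 and 11.16 at day 4, 3.06-fold higher, whereas Timp1, a metalloproteinase inhibitor, was at 9.83 at day 7 and 11.93 at day 4, 4.29-fold lower.

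The libraries of days 2 and 12, which share no array with this comparison, show where the step lies in the course. Of the 303 genes higher at day 7 than at day 4, 215 (71.0%) were also higher at day 12 than at day 2 and 8 were lower, against 7.5% of all 10423 genes higher. Of the 291 lower genes 201 (69.1%) were also lower at day 12 than at day 2 and 2 were higher, against 6.89% lower over all. Day 18 against day 2 gave 195 of the higher genes as higher and 183 of the lower genes as lower, beside 9.55% and 8.9% over all genes. Most of what differed between days 7 and 4 thus differed the same way between a later and an earlier library.

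For many of these genes the level had differed the other way between day 2 and day 0. Of the 303 higher genes 116 (38.3%) had been lower at day 2 than at day 0 and 19 higher, against 8.01% of all genes lower. Of the 291 lower genes 135 (46.4%) had been higher at day 2 than at day 0 and 14 lower, against 8.34% higher over all. At day 12 against day 0, 138 of the higher genes were above the naive level by 2-fold and 17 below it, beside 8.07% and 6.58% of all genes. Of the lower genes 95 were below it and 22 above. Both comparisons against the naive library were chosen once the values were known, and they share that array. The summed signal of red cell and platelet genes was 67901 at day 0 and 24220 at day 2. For neutrophil genes it was 12320 and 39906, and for T cell identity genes 19290 and 23528. What part cells other than T cells have in these comparisons was not tested.

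**Figure D5:**
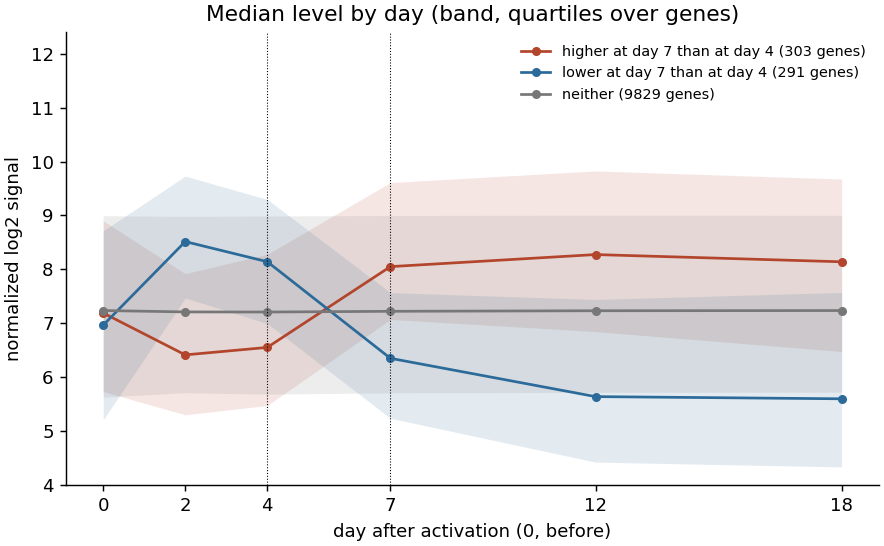
Median normalized log2 level by day of the 303 higher genes (red), the 291 lower genes (blue) and the other 9829 (grey), with bands from the lower to the upper quartile over genes. Dotted lines mark days 4 and 7, on which the genes were chosen. The medians of the higher genes were 7.19, 6.41, 6.55, 8.05, 8.27 and 8.14 at days 0, 2, 4, 7, 12 and 18, and those of the lower genes 6.96, 8.51, 8.14, 6.35, 5.64 and 5.60.

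Part of the lower genes were not detected again. Of the 291, all detected at day 4, 93 (32.0%) were undetected at both day 12 and day 18, and 90 of these had been detected at day 2. Among 9145 genes detected at day 4 that were called neither higher nor lower 496 were undetected at both later days, 5.42%, and among the 278 higher genes detected at day 4 there were 6, or 2.16%. The chosen direction favours such an order, so these shares describe the genes and test nothing.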

How the data were processed

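RNA of 6 libraries, 1 per day, was measured on Illumina bead arrays. The authors deposited, per the file headers, an intensity per probe exported from GenomeStudio with no normalization and no background subtraction, and a detection p-value per probe, whose computation was not given in the sources used here. A second deposited table of intensities, on a linear scale with shared quantiles and values down to -12.4 inferred from the numbers, served as an alternative after adding 16 and taking log2. The labels name a MouseRef-8 protocol, and the table holds 45281 probes.

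Signals were corrected (normexp from the detection p-values), offset by 16, put on the log2 scale and quantile-normalized over all 6 arrays by the neqc function (limma 3.58.1, R 4.3.3). The rest was done with pandas 2.3.3 and numpy 2.4.6 under Python 3.11.15, and figures with matplotlib 3.10.9. A gene was read from the probe with the highest mean. Of 30854 probe names, 16223 matched a RefSeq symbol and 5679 a synonym, 8919 kept the file's name and 33 were altered or numeric. Summed signals are linear, after taking off 16.

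The members and the 51 gene lists were chosen with earlier results of these data known. Named are the 15 largest differences each way among genes detected on both arrays, the 10 each way detected on 1, the 4 largest called members of each list and 53 key genes. Other members of lists were named after their values were seen. Promoters were also searched for the letters TTTGAA and, apart from these, for TTCGCGC, for TTGGCGC (which can overlap a CCAAT box read on the other strand) and for TGACTCA, on both strands, and the first of several promoters of a gene was used. Alternatives are in the closing section. Some genes that the naming rule covers are not reported here. No sample was left out, and no per-sample column was unused.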

Additional observations from a re-analysis of the deposited data

How the results depend on the processing

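No paired analysis was possible because each day had 1 library. The counts of 303 higher and 291 lower genes stayed within 1.5 times under median scaling, no normalization between arrays, normalization of the 2 arrays alone, the deposited values, a detection p below 0.05, genes detected on both arrays and the mean of a gene's probes. They moved further in 6 settings. Scaling on reference genes gave 558 higher, of which 412 were higher at day 12 than at day 2. Scaling on T cell identity genes gave 145 higher (85 also at day 12 against day 2) and 809 lower (728). Without background correction there were 130 higher and 133 lower genes, with an offset of 50 there were 187 and 186, both of which shrink differences of dim genes by construction. The second probe, over 3286 genes, gave 79 and 81, and a 3-fold rule 93 and 112.

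Medians of 30 of the 51 lists changed sign in at least 1 setting: 20 with T cell identity genes held level (all those from 0.01 to 0.37, mitosis to -0.05), 14 of 50 over second probes, 7 with reference genes held level, 6 with detection on both arrays, 3 under median scaling and 2 with a detection p below 0.05. In 4 of these lists at least 25% of members were called. The median of inhibitory receptors became -0.0072 under median scaling, -0.34 with T cell identity genes held level and -0.20 over the second probe of 1 gene. Natural killer and CD8 T cell genes went to -0.028 and -0.36 under the first 2 of these, and the Th1 list to -0.17 under the second. Secreted and matrix genes went to 0.10 with reference genes held level and to 0.048 with a detection p below 0.05 or detection on both arrays. The second probe turned Cdc25b (-0.078) and H3c7 (-0.025). Of the differences of named genes over all settings, 1480 stayed within the probe error, 524 moved further and 2 turned. Why the settings differ was not tested. Bead signals near the detection limit, about 4.89 on the log2 scale, carry bounds only, and differences of dim genes are the least certain.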

Other observations

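Of 12 detected red cell and platelet genes 1 was higher and 1 lower. Hba-a1, an alpha-globin gene, was at 5.62 at day 7 and 7.88 at day 4, 4.81-fold lower, after 14.26 at day 0 and 13.27 at day 2. Ppbp, a platelet chemokine, was at 7.51 at day 7 and 5.64 at day 4, 3.65-fold higher, and its second probe moved by 1.72. The summed signal of the list was 1185 at day 7 and 1533 at day 4.

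In the list of natural killer and CD8 T cell genes, none of 8 detected members was at least 2-fold higher. Tyrobp and Fcer1g, signalling adaptors of natural killer and myeloid cells, were 3.37-fold and 3.22-fold lower, with Fcer1g at 8.56 at day 7 and 10.25 at day 4. Of survival genes, the near-identical copies Bcl2a1d and Bcl2a1b were 2.05-fold and 2.03-fold lower, and Bcl2 was at 9.40 at day 7 and 8.54 at day 4, within 2-fold. The inhibitor of apoptosis gene Birc2 was 2.1-fold higher, with 0.55 for its second probe. Nt5e, which encodes the adenosine-producing enzyme CD73, was 2.08-fold lower and Gpr83, a receptor of regulatory T cells, 2.79-fold lower. Of genes tied to hypoxia P4ha2, a collagen prolyl hydroxylase, was 2.34-fold higher and Car12, a carbonic anhydrase, 2.54-fold lower. Cd9, a tetraspanin, was 2.74-fold lower, Anxa3, an annexin, 6.44-fold, Mmp12, the macrophage elastase, 4.52-fold and Plaur, the urokinase receptor, 3.08-fold lower.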
